A study of Mus musculus with 20 samples.

Results

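The keratins of the interfollicular epidermis, the sheet of skin between the hair follicles, were followed across 4 groups of mouse libraries. The 10 genes were a named list, out of 55471 genes in the count table, and were divided by where they are usually made. The basal keratins were Krt5, Krt14 and Krt15, the suprabasal keratins were Krt1, Krt2, Krt10 and Krt77, and the stress keratins were Krt6a, Krt6b and Krt16. The list and its division were drawn up with earlier results of these libraries known, so every difference between acetone and DNFB for these genes is given as a description, and their p-values support nothing.

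All mice were WT. The skin groups, which the labels call "Epithelial skin", were epidermis from the back skin of mice aged 4 to 6 weeks at the start of the protocol. The back skin was painted with DNFB in acetone or with acetone alone for 22 days. In the paper's protocol DNFB was first put on the abdomen to sensitize the mice, and acetone stands for acetone mixed with olive oil. DNFB is a hapten that causes contact dermatitis when it is applied repeatedly. The pancreas groups received caerulein, a peptide that overstimulates the acinar cells, at 50 µg/kg or PBS alone, given as 6 injections on each of 3 days a week for 3 weeks. Each group had 5 libraries, made with a modified Smart-Seq2 protocol, and the labels do not say that each came from a separate mouse. The p-values therefore measure the spread between these libraries, which may be technical.

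Keratins are the intermediate filament proteins of epithelia, and each filament is built from pairs of a type I and a type II keratin. Basal keratinocytes, which divide and sit on the basement membrane, make K5 with K14. Cells that leave the basal layer switch to K1 with K10, and injured or inflamed epidermis adds K6 with K16. In bulk RNA, fewer cells of a layer and less RNA per cell cannot be told apart.

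The type II genes Krt5, Krt1, Krt2, Krt77, Krt6a and Krt6b lay on chromosome 15 and the type I genes Krt14, Krt15, Krt10 and Krt16 on chromosome 11 of GRCm38, all on the minus strand. Krt77 spanned chr15:101858731-101869705, and Krt10 spanned chr11:99385254-99389364. Promoter sequences from RefSeq (GRCm38.p6) matched 5 of the 10 genes, Krt5, Krt14, Krt2, Krt10 and Krt77. The 250 bases before the start are shown for Krt77, which had the largest fitted difference between the skin groups among the 9 keratins tested, for Krt10 and Krt2, of the same class, and for Krt5, a basal gene. Capitals mark matches to TATANA on either strand, read 5′ to 3′ in the direction of the gene.
Krt77: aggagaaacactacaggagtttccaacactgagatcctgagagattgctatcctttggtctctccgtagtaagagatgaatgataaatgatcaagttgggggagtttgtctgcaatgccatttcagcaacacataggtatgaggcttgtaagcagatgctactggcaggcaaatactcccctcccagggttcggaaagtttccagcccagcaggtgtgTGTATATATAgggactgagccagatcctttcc
Krt10: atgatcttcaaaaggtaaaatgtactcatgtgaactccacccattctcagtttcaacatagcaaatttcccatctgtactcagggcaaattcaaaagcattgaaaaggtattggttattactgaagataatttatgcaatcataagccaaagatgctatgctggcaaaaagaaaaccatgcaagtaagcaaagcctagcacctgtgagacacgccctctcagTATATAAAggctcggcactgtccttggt
Krt2: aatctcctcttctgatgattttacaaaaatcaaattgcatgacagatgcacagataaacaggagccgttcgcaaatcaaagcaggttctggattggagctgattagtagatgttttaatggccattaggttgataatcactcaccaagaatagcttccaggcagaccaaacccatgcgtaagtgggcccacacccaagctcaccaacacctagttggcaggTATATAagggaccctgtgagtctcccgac
Krt5: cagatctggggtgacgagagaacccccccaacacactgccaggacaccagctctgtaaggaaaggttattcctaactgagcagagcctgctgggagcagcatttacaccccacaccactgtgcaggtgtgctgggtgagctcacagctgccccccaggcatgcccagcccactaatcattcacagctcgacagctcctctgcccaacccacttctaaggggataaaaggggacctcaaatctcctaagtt
The windows were chr15:101869706-101869955 for Krt77, chr11:99389365-99389614 for Krt10, chr15:101818170-101818419 for Krt2 and chr15:101712906-101713155 for Krt5. The Krt14 window lay inside the span of that gene in the GENCODE annotation and is not shown.

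The first motifs searched, on both strands, were TATAAA for the TATA box, TGANTCA for AP-1 and GCCNNNGGC for AP-2. TATAAA was in 1 of the 5 windows, that of Krt10, and in 12.4% of 32851 mouse promoter windows of this length. TGANTCA and GCCNNNGGC were in 0 of the 5 windows, and in 6.75% and 13.7% of all windows. After these sequences had been read, the looser letters TATANA, which include every TATAAA match, were searched as well. They were in 3 of the 5 windows, those of Krt77, Krt10 and Krt2, and in 22.6% of all windows. The looser letters were chosen on these sequences, so the count of 3 is a description of them only. The Krt10 match to TATAAA began 26 bases before the start.

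The skin libraries held 791557 to 1738427 counts, of which 37.4% to 92.4% in the acetone group and 57.5% to 82.5% in the DNFB group were on the satellite-like predicted genes Gm10800, Gm10801 and Gm21738. Outside these genes, 106569 to 1082482 counts remained per acetone library and 159421 to 698679 per DNFB library. Acetone libraries 11 and 12, numbered as in the labels, stood apart, with 10427 and 13089 counts on the 10 keratins against 125, 692 and 139 in acetone libraries 1, 2 and 3. DNFB libraries 4, 5, 6, 13 and 14 held 2365, 2123, 3333, 14411 and 263 such counts. The labels do not say what the numbering stands for.

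Expression is given as normalized CPM, counts scaled to a common library total after TMM scaling, which corrects for differences in library composition. This correction was large. The TMM factors in skin ran from 0.228 in acetone library 1 to 3.26 in acetone library 11. The effective library sizes of these libraries were 310473 and 5122991, against filtered totals of 1364479 and 1571767. Levels in single libraries therefore depend on these factors and are not CPM of the plain library totals. The tests used edgeR's quasi-likelihood method with Benjamini-Hochberg adjustment over all 7265 genes tested in skin. Of the 10 keratins, 9 passed the filter on low counts, and 1 of them, Krt77, had an adjusted p under 0.05, where 0.0413% of all genes tested did. With DESeq2, 5 did (Krt77, Krt16, Krt6a, Krt15 and Krt6b), where 0.479% of all genes did. The libraries of the 2 skin groups did not overlap for 1 of the keratins, Krt77, against 1.27% of all genes tested in either direction. The rule chose these genes with this contrast known, and nothing is read from these counts.

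**Figure D1:**
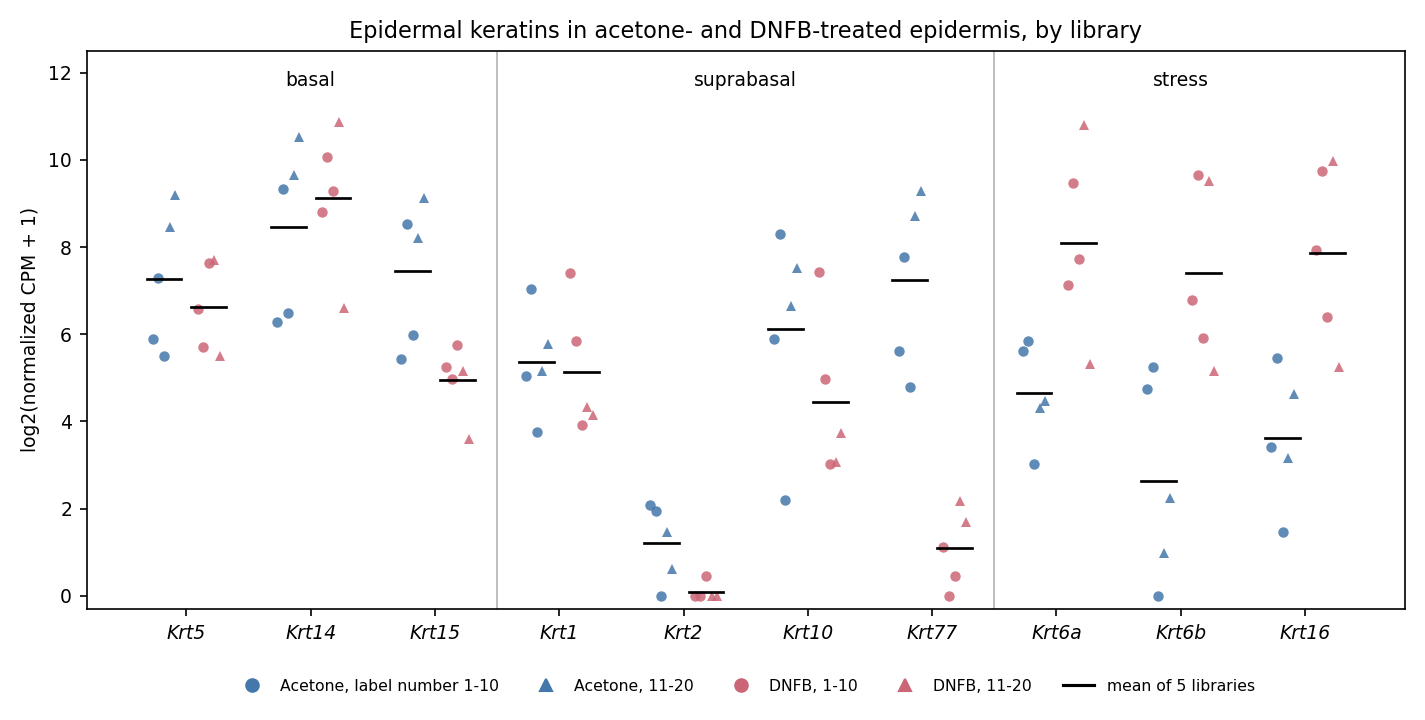
Each point is 1 library, with log2(normalized CPM + 1) on the vertical axis and the 10 keratins by class on the horizontal axis. Blue points are acetone and red points DNFB, circles are libraries numbered 1 to 10 and triangles those numbered 11 to 20, and black lines are means of 5 libraries. The groups separate fully for Krt77, and 4 of 5 DNFB libraries lie above all acetone libraries for Krt6a, Krt6b and Krt16.

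Among the basal keratins, Krt15 was lower with DNFB while Krt14 and Krt5 overlapped broadly. Krt14, the type I partner of K5, had 77.3, 643, 88.9, 801 and 1478 normalized CPM in acetone libraries 1, 2, 3, 11 and 12. It had 442, 1066, 621, 1859 and 95.8 in DNFB libraries 4, 5, 6, 13 and 14. The groups covered nearly the same range, and the log2 fold change was 0.40 (SE 0.90), or 1.73 without acetone libraries 11 and 12. Krt5, the type II partner, had 58.0, 157, 44.5, 353 and 581 normalized CPM with acetone. The DNFB values were 95.2, 50.9, 196, 207 and 44.6. The highest values were those of acetone libraries 11 and 12, and the log2 fold change was -1.01 (SE 0.77). Without those libraries the log2 fold change of Krt5 was 0.63, so its direction rested on them, and without acetone library 12 alone it was -0.40.

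Krt15, a type I keratin of basal cells that is also high in the hair follicle bulge, had 41.9, 367, 62.2, 296 and 559 normalized CPM with acetone. After DNFB the values were 36.9, 30.6, 52.6, 34.4 and 11.1. The DNFB libraries were below all acetone libraries in 4 of 5 cases, and the highest DNFB value (52.6) overlapped the lowest acetone value (41.9). The log2 fold change was -3.0 (SE 0.78), a 7.97-fold lower level, and it was -2.07 without acetone libraries 11 and 12. Krt15 differed from Krt14 within the same libraries. The log2 ratio of Krt15 to Krt14 was -1.0 ± 0.40 (SD, n = 5) with acetone and -4.20 ± 1.15 (SD, n = 5) with DNFB, and the groups did not overlap. The ratio of Krt5 to Krt14 was -1.19 ± 0.59 and -2.50 ± 1.29 (SD, n = 5 each), and these groups overlapped.

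Among the suprabasal keratins, Krt77 was far lower with DNFB, while Krt1 was at about the same mean level. Krt77, a type II keratin, had 48.3, 216, 26.7, 421 and 619 normalized CPM with acetone. With DNFB it had 1.19, 0, 0.373, 3.52 and 2.23. Every DNFB library was below every acetone library, and the DNFB group held 14 Krt77 counts in all. The log2 fold change was -7.34 (SE 1.11). Without acetone libraries 11 and 12 it was -5.69. Leaving out acetone library 2 or 12 or DNFB library 5 or 13 left 0 genes past the edgeR threshold, Krt77 included.

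Krt1, the type II partner of K10, had 32.2, 131, 12.4, 34.9 and 53.6 normalized CPM with acetone. With DNFB it had 168, 56.0, 14.2, 19.2 and 16.7. The highest library was DNFB 4, the other DNFB libraries were within the acetone range, and the log2 fold change was 0.07 (SE 0.76). It was -1.0 without DNFB library 4 and 0.70 without acetone library 2. Krt10 had 58.0, 316, 3.56, 99.2 and 183 normalized CPM with acetone. The DNFB libraries had 171, 30.6, 7.09, 7.44 and 12.3. DNFB library 4 was again the highest of its group, and the log2 fold change was -1.52 (SE 0.99). Without that library it was -3.25, and without acetone library 2 it was -0.93. Krt2, a late suprabasal type II keratin, did not pass the filter. It had 1, 1, 0, 9 and 2 counts with acetone and 0, 0, 1, 0 and 0 with DNFB, too few to compare at this depth.

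Within libraries, Krt77 parted from Krt1, of its class, and from the basal gene Krt14. Its ratios to Krt10 and Krt2 were not taken. The log2 ratio of Krt77 to Krt1 was 1.89 ± 1.53 with acetone and -4.52 ± 1.99 with DNFB (SD, n = 5 each), without overlap. The log2 ratio of Krt77 to Krt14 was -1.22 ± 0.43 and -8.54 ± 2.10 (SD, n = 5 each), also without overlap. Krt77 had 2, 0, 1, 9 and 2 counts in DNFB libraries 4, 5, 6, 13 and 14. The size of its DNFB ratios therefore depends on the constant added to each count and on depth. The log2 ratio of Krt10 to Krt1 was 0.75 ± 1.35 and -0.72 ± 0.53 (SD, n = 5 each), and here the groups overlapped.

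The stress keratins were higher in most DNFB libraries. Krt6a, a type II keratin, had 48.3, 56.9, 7.11, 18.9 and 21 normalized CPM with acetone. The DNFB libraries had 139, 711, 210, 1770 and 39.0. DNFB library 14 lay within the acetone range, the other 4 lay above it, and the log2 fold change was 4.28 (SE 1.02), or 3.21 without DNFB library 13. Krt6b, its close paralog, had 25.8, 37.0, 0, 0.976 and 3.77 normalized CPM with acetone. After DNFB the values were 110, 806, 59.4, 734 and 34.5. The lowest DNFB value was again under the highest acetone value, and the log2 fold change was 4.89 (SE 1.27). It was 5.92 without acetone library 2 and 4.15 without acetone libraries 11 and 12. Krt16, the type I partner of K6, had 9.66, 42.7, 1.78, 8.0 and 23.7 normalized CPM with acetone. With DNFB it had 243, 852, 83.6, 1006 and 36.8. DNFB library 14 was the single library inside the acetone range, and the log2 fold change was 4.72 (SE 1.05).

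Some of these genes share sequence, so their counts are estimates of how shared reads divide. Of the 31-base stretches of Krt6a, 49.3% were also in Krt6b, and 50.3% of those of Krt6b were in Krt6a. Krt16 shared 32.2% of its stretches with the predicted gene Gm11597, and Krt14 shared 18.2% with Krt16. Krt1, Krt2, Krt10 and Krt77 each shared under 1% with any other gene. The split between Krt6a and Krt6b is therefore uncertain, and their difference in fold change is not interpreted. Sharing also crossed the classes, since Krt5 shared 9.46% of its stretches with Krt6a. The class shares and the stress to basal ratios below thus depend in part on how such reads were divided, which was not tested.

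**Figure D2:**
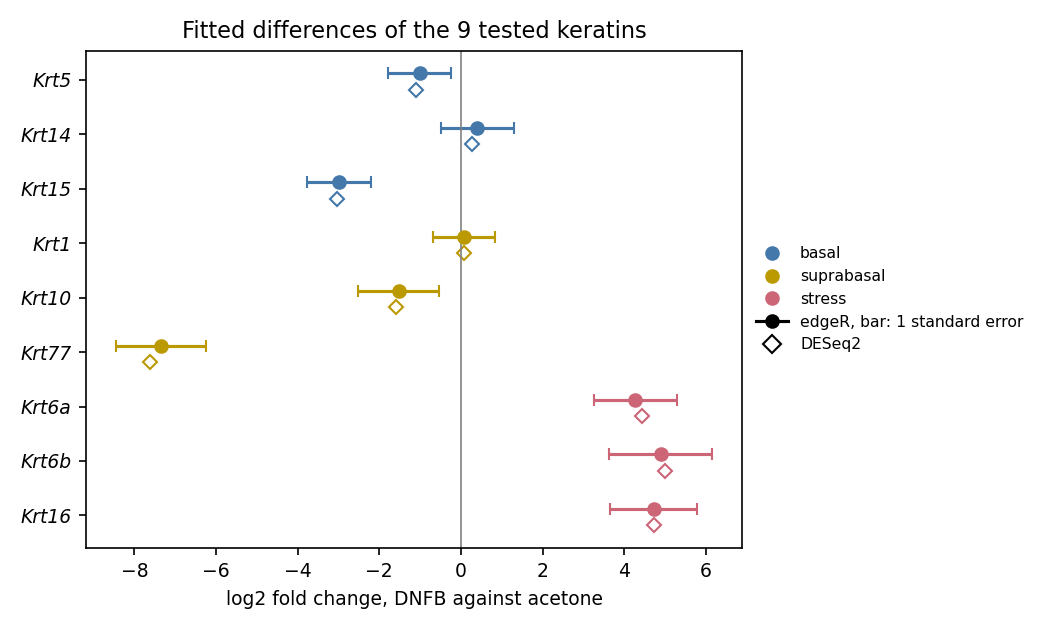
Log2 fold changes of DNFB against acetone for the 9 tested keratins, colored by class. Filled circles are edgeR estimates with bars of 1 standard error and open diamonds are DESeq2 estimates. Krt77 lies at -7.34, Krt15 at -3.0, and Krt6a, Krt6b and Krt16 between 4.28 and 4.89.

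The share that each class took of the 10 keratins' counts does not depend on library scaling. The stress keratins took 20.8%, 6.94%, 3.60%, 1.37% and 1.38% in acetone libraries 1, 2, 3, 11 and 12. They took 35.0%, 65.8%, 28.4%, 62.2% and 37.6% in DNFB libraries 4, 5, 6, 13 and 14. Every DNFB library was above every acetone library, with means of 6.82% ± 8.14 and 45.8% ± 17 (SD, n = 5 each). Acetone library 1 had the highest acetone share, from 125 counts, with an exact 95% binomial interval of 14.1% to 29.0% that covers counting error only.

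The suprabasal share was 27.6% ± 7.32 with acetone and 7.91% ± 9.94 with DNFB (SD, n = 5 each). DNFB library 4, at 24.2%, was inside the acetone range, and the other 4 were below it, at 0.53% to 10.7%. The basal share was 65.6% ± 14.1 and 46.3% ± 15.1 (SD, n = 5 each), and these groups overlapped. The class shares of a library make up the whole, so a higher stress share lowers the others, whatever the levels of those genes. Single genes behaved differently inside the classes. Krt14 took 33.8% ± 8.90 of the keratin counts with acetone and 35.3% ± 8.25 with DNFB, while Krt15 took 16.9% ± 5.49 and 2.42% ± 1.66 (SD, n = 5 each). Most of the difference in the suprabasal share was in Krt77, which took 14.4% ± 4.48 and 0.187% ± 0.322, while Krt1 took 4.58% ± 2.90 and 4.14% ± 4.84 (SD, n = 5 each).

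As log2 ratios of class sums, stress to suprabasal was -2.70 ± 1.51 with acetone and 3.58 ± 2.48 with DNFB (SD, n = 5 each), without overlap. Stress to basal was -3.95 ± 1.97 and -0.04 ± 0.95 (SD, n = 5 each), and 4 of 5 DNFB libraries were above all acetone libraries. The difference in stress to basal was 3.92, against 2.62 within label numbers 1 to 10, 5.86 within 11 to 20 and 2.74 without acetone libraries 11 and 12. Per kilobase of transcript, the log2 ratio of type II to type I keratins was -1.13 ± 0.55 and -0.84 ± 0.30 (SD, n = 5 each). The balance of the partner types thus overlapped between the groups.

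**Figure D3:**
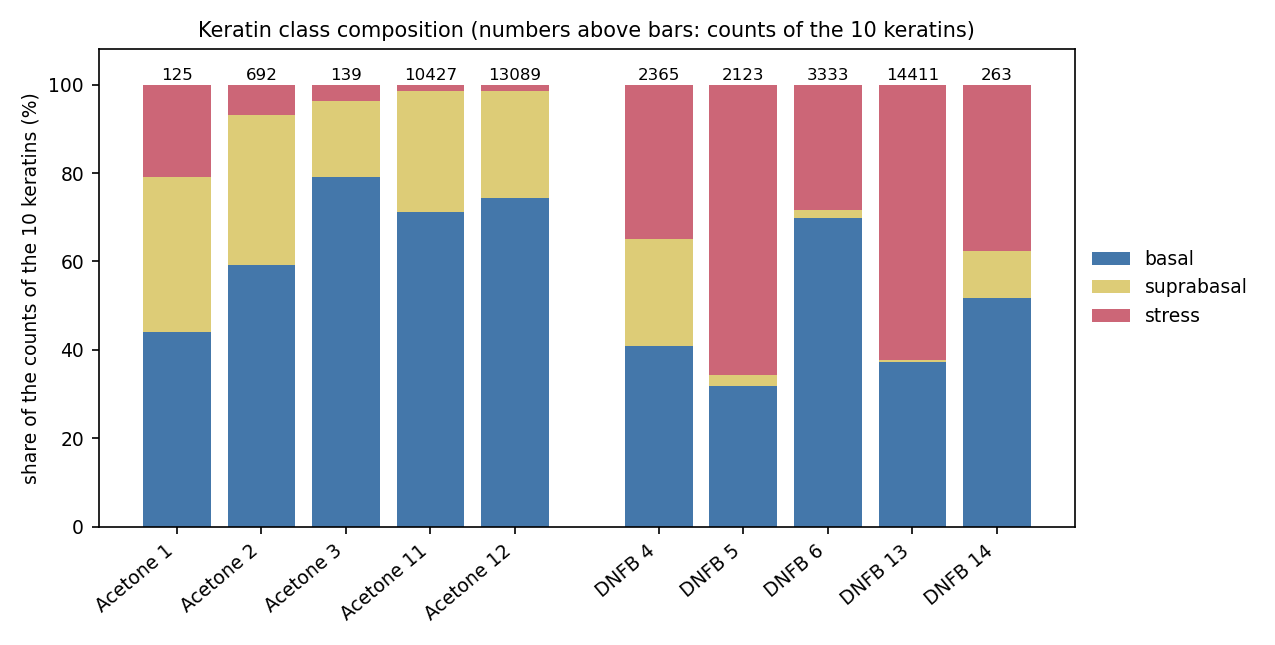
Stacked bars give the percent of the 10 keratins' counts from basal (blue), suprabasal (yellow) and stress (red) keratins in each skin library, and the numbers above the bars are those counts. The stress share is 1.37% to 20.8% in the acetone libraries and 28.4% to 65.8% in the DNFB libraries.

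The differences were also computed within each range of label numbers, 1 to 10 (3 acetone and 3 DNFB libraries) and 11 to 20 (2 and 2). The mean log2 difference had the same sign in both ranges for 6 of the 9 keratins tested, against 43.2% of all 7265 genes tested, and nothing is read from this count. Krt77 was -6.70 and -7.37, Krt15 was -1.33 and -4.35, and Krt16 was 4.76 and 3.78. Krt5, Krt14 and Krt1 changed sign. Krt14 was 2.01 in the first range and -1.36 in the second.

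The levels of the keratins were also compared across libraries of the same group. Pearson's r of deviations from the group mean was computed over the 10 skin libraries, which share depth and composition effects, and is a description without a test. The median r was 0.85 over 9 pairs within a class and 0.41 over 27 pairs across classes. The values were also taken within each group, without a test of their difference. Over the 5 acetone libraries alone the medians were 0.91 and 0.68, and over the 5 DNFB libraries alone 0.74 and 0.15. Among the suprabasal keratins the within-class median was 0.80 with acetone and -0.19 with DNFB. That DNFB median rested on the pairs with Krt77, which held 14 counts in all with DNFB. Krt1 and Krt10, the suprabasal partners, had r = 0.93 with acetone alone and 0.98 with DNFB alone. Over all 10 libraries Krt1 and Krt10 had r = 0.93, and Krt6a and Krt16 had r = 0.87. Krt77 had r = 0.20 with Krt1 and r = 0.74 with Krt5 over all 10 libraries. These values were 0.63 and 0.99 with acetone alone, and -0.24 and 0.27 with DNFB alone, where Krt77 counts were few. With the depth outside the satellite-like genes removed they were 0.39 and 0.41, so Krt77 did not stand apart in every setting. Krt5 also followed the depth outside the satellite-like genes (r = 0.89), as did Krt77 (r = 0.68), Krt15 (r = 0.66) and Krt14 (r = 0.61), and the part of depth in these correlations was not tested beyond removing it, after which the within-class median was 0.82 and the across-class median 0.55.

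**Figure D4:**
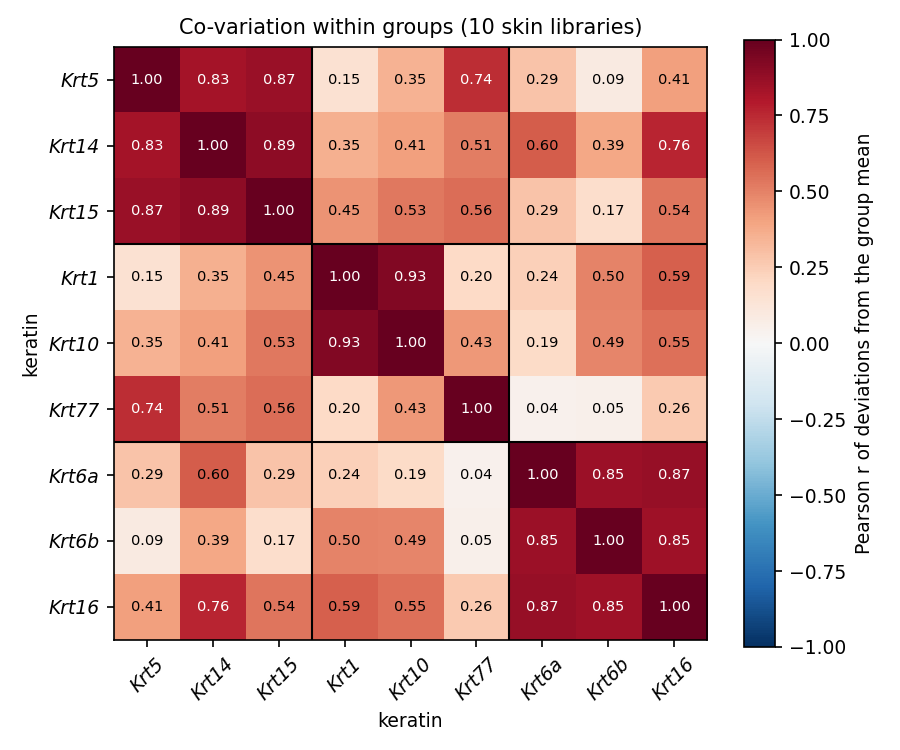
Pearson's r between the 9 tested keratins, computed from deviations of log2 normalized CPM from the group mean over 10 skin libraries, with lines between the classes. Within-class r is 0.83 to 0.89 among basal and 0.85 to 0.87 among stress keratins, and Krt77 has r = 0.20 with Krt1.

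Among the 7256 other genes tested in skin, those most like each class sum by the same measure over 10 libraries were Evpl (r = 0.97), Cdc42se1 and Lypd3 for the basal keratins. They were Ppp4c (r = 0.92), Vapa and Calm4 for the suprabasal keratins, and Bicd2 (r = 0.91), Tacc1 and Fosl2 for the stress keratins. These genes are the highest of a search over 7256 genes with 10 libraries, and no r was tested against such a search. Bicd2, Tacc1 and Fosl2 had log2 fold changes of -0.86, -0.65 and -0.33 with DNFB, while those of the stress keratins were positive.

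The keratins were set beside lists of related genes. These lists, and the marker lists below, were chosen with earlier results of these data known, so their counts and medians are a description only. The activation list holds S100a8 and S100a9, which the paper reports as raised in DNFB-treated skin. In the list of epidermal activation genes, 1 of 10 tested genes was called higher and 0 lower with DNFB by the edgeR threshold. Of all genes tested, 0.0275% were called higher. The median log2 fold change of the list was 1.31, against 0.02 over all genes tested. Positive log2 fold changes were found for 8 of the 10 genes and negative ones for 2. At an unadjusted edgeR p under 0.05, 3 were higher and 0 lower. The gene past the threshold was S100a8, a calcium-binding alarmin, which went from 1.70 ± 1.32 to 106 ± 119 normalized CPM (SD, n = 5 each). Its edgeR adjusted p was 0.046. That call was lost without acetone library 1, 2, 11 or 12 or DNFB library 5 or 13, each left out in turn. Without acetone libraries 11 and 12 together the adjusted p of S100a8 was 0.161. S100a9, of the same list, had the larger log2 fold change, 7.15 (SE 1.31) against 6.20 (SE 1.06) for S100a8. The edgeR adjusted p of S100a9 was 0.056. Among the suprabasal program genes, 0 of 16 passed the test in either direction, with a median of -0.32. Krtdap, a keratinocyte differentiation protein, had a log2 fold change of -1.44 (SE 0.76), and 5 of the 16 had positive log2 fold changes. Among the basal program genes, 0 of 11 passed, with a median of -0.71, and 3 of the 11 had positive log2 fold changes. Col17a1, a hemidesmosome collagen, had -2.37 (SE 0.82), Trp63 had -0.71 (SE 0.51) and Cd44 had 0.23 (SE 0.50). In the lists of filament partners and proliferation genes, 0 of 14 and 0 of 16 passed, with medians of -0.62 and 0.24. At an unadjusted edgeR p under 0.05, 1 of the 16 suprabasal program genes was higher and 1 lower. Of the 11 basal program genes, 0 were higher and 4 lower. Of the 14 filament partners, 1 was higher and 3 lower, and of the 16 proliferation genes 1 was higher and 0 lower. The share of all genes tested was 5.85% in either direction.

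In the lists of markers of other structures, 0 genes passed the edgeR threshold, where 0.0413% of all genes tested did, and the summed levels given here overlapped between the groups. Only 3 of the 7265 genes tested in skin passed it, so 0 in a short list says nothing about these structures. Hair follicle keratins had 0 of 13 tested genes past the threshold and a median log2 fold change of 1.15, and their summed level was 74.1 to 2403 normalized CPM with acetone and 292 to 3704 with DNFB. Dermal fibroblast markers had 0 of 6, with a median of -1.26, and summed levels of 155 to 718 and 131 to 209. Melanocyte markers had 0 of 5, with a median of 1.24. Langerhans cell markers had 0 of 3, with a median of -1.58, while their summed level had a median of 108.2 normalized CPM with acetone (range 25.8 to 858) and 108.4 with DNFB (range 67.8 to 153). Muscle, leukocyte and sebocyte markers had 0 of 6, 0 of 4 and 0 of 7, with medians of -0.78, -0.38 and 0.11. At an unadjusted edgeR p under 0.05, 3 fibroblast, 2 muscle, 2 Langerhans cell and 1 leukocyte genes were lower and 0 higher. In the other direction, 2 hair follicle keratins and 1 melanocyte gene were higher and 0 lower. Of all genes tested, 5.85% were under 0.05. All 6 fibroblast and all 6 muscle genes had negative log2 fold changes, and all 5 melanocyte genes had positive ones. Krt17, a follicle keratin that is also made in stressed epidermis, was at 179 ± 206 normalized CPM in the acetone libraries and 401 ± 442 in the DNFB libraries (SD, n = 5 each), and its log2 fold change of 1.15 (SE 0.96) did not pass the test. Krt78, from the list of other epithelial keratins, did not pass the filter and had 22.9 ± 16.1 and 1.66 ± 1.61 normalized CPM (SD, n = 5 each). The part of these tissues in the keratin differences was not tested. Pancreatic acinar markers summed to between 1.57 and 61.3 normalized CPM in the skin libraries. The highest sum was in DNFB library 14, followed by 29.0 in acetone library 1 and 19.6 in acetone library 3. The remaining libraries had at most 8.92.

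In the pancreas the 10 keratins were near absent. Summed over all 10, the PBS libraries held 0 or 1 counts each and the caerulein libraries 0 to 9. None of the 10 passed the filter on low counts for caerulein against PBS, so no difference was detectable at this depth, where 12.2% of the 946 genes tested were called. Between acetone epidermis and PBS pancreas, Krt14, Krt15, Krt5 and Krt77 passed the filter through the skin libraries, with 9898, 3771, 4065 and 4564 counts over the 5 acetone libraries and 1, 1, 0 and 0 counts over the 5 PBS libraries. No fold is given against so few counts. All 4 had an adjusted p under 0.05, where 25.1% of the 736 genes tested were called in either direction, and since they passed only where they are high this is no support for a difference.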

How the data were processed

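The authors mapped Smart-Seq2 reads with STAR 2.5.3 and deposited expected counts per gene from RSEM 1.3.1, on GRCm38, and these versions, with DESeq2 1.24.0, come from the submitters' processing notes. The expected counts were rounded (94.7% were already whole) and used for 20 libraries. Names and transcript lengths came from GENCODE M21, which named 55144 of 55471 genes, and the table held 0 unused sample columns. Library totals ranged from 791557 to 2232101 counts, and shares and floors cover counting error only, since reads carry no molecular identifiers.

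Groups came from the treatment labels. Each comparison (DNFB against acetone, caerulein against PBS, acetone against PBS) was fitted with R 4.3.3 and edgeR 4.0.16 (glmQLFTest, filterByExpr with a minimum count of 10, TMM, Benjamini-Hochberg threshold 0.05). DESeq2 1.42.0, other scalings, filters, covariates and leaving out libraries were alternatives. Class shares and ratios used raw counts, with 1 added to each class sum in the ratios of classes. In ratios between single genes a constant of less than 1 was added to each count. The code was tested on simulated data. The named genes are the 10 keratins, up to 3 genes per list (those past the threshold first, then the most abundant) and the 3 genes most like each class. Members and lists were chosen with earlier results of these data known, and the motif TATANA was chosen after the promoter sequences had been read.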

Additional observations from a re-analysis of the deposited data

Results flagged for a closer look

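Krt2 in the DNFB libraries was far from the others in 1 library. DNFB library 6 held 1 count and the other 4 held 0, so the gap to the nearest library divided by the whole range of log2 normalized CPM was 1.0. Of 26 groups examined, 1 was picked out in this way, where chance gives about 1.3. The value rests on a single count.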

How the results depend on the processing

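No paired analysis was possible because no label number occurs in more than 1 group. The number of genes changed with DNFB was 3 and became 87 with DESeq2, 0 with library totals alone, 106 with no filter on low counts, 6 without the satellite-like genes, 1 with at least 10 counts in every library, 12 with the label number range as a term, 25 with all 20 libraries in 1 fit, 1 without acetone libraries 11 and 12, 0 with robust dispersion and 0 to 34 when each library was left out. The count of 0 with library totals stood beside 164 genes at an unadjusted p under 0.05, and that with robust dispersion beside 416. Caerulein against PBS gave 115 genes, 765 with DESeq2, 572 with library totals alone, 1264 with no filter and 15 to 293 leaving out each library. Acetone against PBS gave 185, 1257, 419, 1205, 93 without acetone libraries 11 and 12, and 121 to 445. The cause was not tested.

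Krt77 had an adjusted p of 0.031 with edgeR, of 0.175 with library totals alone and 0.052 with robust dispersion, and from 0.005 to 0.155 when each library was left out, under 0.05 in 6 of 10 cases. Its call was lost without acetone library 2 or 12 or DNFB library 5 or 13. S100a8 was under 0.05 in 4 of 10 such cases. The log2 fold change of Krt14 reversed to -0.056 with library totals alone and -0.0070 with no filter, that of Krt1 to -0.24 with the label number range as a term, and that of Krt5 to 0.63 without acetone libraries 11 and 12. Leaving out each library, Krt14 ranged from -0.16 to 0.97 and Krt1 from -1.0 to 0.70. Without acetone libraries 11 and 12 the median log2 fold change of all genes was 0.17, and with no filter it was 0.15. The difference in log2 stress to basal was 3.92, and with alternatives chosen after seeing the data it was 5.86 within label numbers 11 to 20, 2.62 within 1 to 10 and 2.74 without acetone libraries 11 and 12. Leaving out each library it was 3.47 to 4.64, and that of suprabasal to basal was -3.08 to -1.74.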
